A study of Mus musculus with 17 samples.

Results

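The nuclear receptor superfamily of the mouse colon is described here through 38 receptor genes, chosen by name and not by any measured value, among 37074 gene or transcript names on the array. They were read by 87 probes, of which 1 was used for each gene, the probe with the highest mean log2 value in the authors' table or, for 2 receptors without a probe there, in the normalized scanner values. Nuclear receptors are transcription factors that most often act after a small lipid-soluble ligand such as a bile acid, oxysterol, retinoid, vitamin D or steroid binds to them. Many of them sit on DNA as a dimer with a retinoid X receptor (Rxra, Rxrb, Rxrg), and coactivators or corepressors then set the transcription of the target gene. In the colon they are known for sensing bile acids, xenobiotics, vitamin D and salt-regulating hormones.

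RNA of whole colon came from male C57BL/6J mice in 4 groups. WT CONT (wild-type, corn oil, n = 4) and WT PCN (wild-type, given pregnenolone 16α-carbonitrile, which activates the PXR of rodents, n = 4) were compared with Pxr-/- CONT (n = 5) and Pxr-/- PCN (n = 4), which lack functional PXR, the product of Nr1i2. PCN was injected intraperitoneally each day for 4 days at 100 mg/kg in corn oil, and all mice were killed at ZT6, in a state that the labels call fed and the study's text semi-fasted, with the last injection 6 h earlier. WT mice were purchased at 6 weeks of age and acclimatized for 2 weeks, and Pxr-/- mice, backcrossed on the C57BL/6J background, were bred in the study's own facility, so genotype and origin of the mice cannot be told apart. The labels do not state the age of the Pxr-/- mice. Arrays are named by group and by the replicate number of the label.

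The array labelled WT PCN 4 was near-identical to Pxr-/- PCN 2, and WT PCN 3 to Pxr-/- CONT 2. The SD of their log2 differences over 38646 probes was 0.172 and 0.198, below the 0.297 of the next closest of 136 pairs. The known PXR targets Abcb1a, Ces2a and Akr1b7 were above all WT CONT arrays on WT PCN 1 and 2 and below all of them on the arrays labelled WT PCN 3 and 4, where they read close to the near-identical Pxr-/- array (for Ces2a 9.78 against 9.75, and 10.59 against 10.49). The other PXR targets read, Cyp2c55 and Cyp3a11, were also above WT CONT on WT PCN 1 and 2. On WT PCN 3 and 4, Cyp2c55 (13.52 and 13.19) lay within WT CONT (12.76 to 15.53). Cyp3a11 was below WT CONT (6.33 to 6.87) on WT PCN 3 (6.21) and within it on WT PCN 4 (6.47). Values that these arrays change most are therefore also given without them. The colonocyte and goblet markers (8 and 7 genes) and the smooth muscle markers (8 genes) were well above the background on all arrays of every group. Pancreas markers averaged 17.69 on the array of WT CONT 4, 15.54 on Pxr-/- CONT 2, 15.59 on WT PCN 3 and 11.40 on WT PCN 1, against 6.78 to 7.22 on the other arrays. Liver markers averaged 10.49 on WT CONT 5 and 8.16 on both WT PCN 1 and WT PCN 2, against 6.13 to 6.53 elsewhere. In whole tissue, fewer cells of a type and less RNA per cell cannot be told apart.

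The receptors the results turn on are the retinoic acid receptor Rarb and the NR4A receptors, whose genes are themselves known targets of signals. The Rarb promoter is known for a retinoic acid response element, a direct repeat of half-sites with a spacer. NR4A genes are immediate-early genes, switched on within minutes by stimuli such as cAMP, and TGACG is the half-site of the cAMP response element. The 250 bases before the start site of each gene are printed from RefSeq (GRCm38.p6), so that these letters can be seen next to the values. Capitals mark GGTTCA and AGTTCA with the 5 bases between them in Rarb (chr14:16575477-16575726, minus strand) and TGACG, or CGTCA where it lies on the other strand, in Nr4a1 (chr15:101266596-101266845, plus strand), Nr4a2 (chr2:57124004-57124253, minus strand) and Nr4a3 (chr4:48045055-48045304, plus strand).
Rarb: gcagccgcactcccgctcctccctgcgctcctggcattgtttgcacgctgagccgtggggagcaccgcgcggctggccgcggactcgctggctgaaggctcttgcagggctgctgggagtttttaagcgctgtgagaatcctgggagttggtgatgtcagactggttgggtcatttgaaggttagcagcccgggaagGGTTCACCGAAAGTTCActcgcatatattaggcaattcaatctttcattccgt
Nr4a1: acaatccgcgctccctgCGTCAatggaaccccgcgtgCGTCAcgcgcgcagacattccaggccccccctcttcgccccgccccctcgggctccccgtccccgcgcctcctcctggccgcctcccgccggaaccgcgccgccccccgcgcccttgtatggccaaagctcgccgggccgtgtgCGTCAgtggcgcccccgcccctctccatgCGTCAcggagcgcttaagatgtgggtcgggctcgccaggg
Nr4a2: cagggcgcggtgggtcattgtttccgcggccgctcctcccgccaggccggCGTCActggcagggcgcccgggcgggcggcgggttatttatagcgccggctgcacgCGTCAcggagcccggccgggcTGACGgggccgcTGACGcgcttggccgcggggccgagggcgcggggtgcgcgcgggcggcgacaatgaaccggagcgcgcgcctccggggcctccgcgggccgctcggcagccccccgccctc
Nr4a3: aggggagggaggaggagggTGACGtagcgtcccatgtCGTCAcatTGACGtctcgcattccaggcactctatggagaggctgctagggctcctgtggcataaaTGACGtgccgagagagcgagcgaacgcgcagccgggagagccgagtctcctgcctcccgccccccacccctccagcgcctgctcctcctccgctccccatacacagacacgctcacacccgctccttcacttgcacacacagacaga

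The Rarb repeat ran from base -53 to base -37 relative to the start site. Both strands were searched for GGTTCA, 5 bases of any kind and AGTTCA in the same 250-base window of all 32851 promoters of the RefSeq table. These half-sites are the ones printed for Rarb, so its promoter had to match and the share is no test of it. The repeat was held by 2 promoters (0.00609%). Each NR4A promoter held 4 matches to TGACG, none overlapping another. At least 1 match was found in 5836 promoters (17.8%) and 4 or more in 45 promoters (0.137%). Of the 55 promoters listed for 35 members (none was listed for Thra, Nr5a1 and Hnf4g), 11 held TGACG and 3 held 4 or more, namely those of the NR4A genes. The cut of 4 equals the count in the NR4A promoters, so they had to pass it and the share is no test of them. A match describes the letters of the window and is not a measured binding site.

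Most of the superfamily was measurable in the colon. For 35 of the 38 receptors the spot was well above the background on all 17 arrays. Over all probes, 61.0% to 69.7% were well above background on a given array. The probe used for a receptor was its brightest, which favours detection, so the 2 shares are not alike. They also differ in that the share over all probes is per array, whereas the 35 receptors passed on all 17 arrays. Esrrb, an orphan receptor of pluripotent cells, passed on 13 arrays (3 of 4 WT CONT, 3 of 4 WT PCN, 5 of 5 Pxr-/- CONT and 2 of 4 Pxr-/- PCN). The progesterone receptor Pgr passed on 1 array, of WT PCN, and Nr0b2, which encodes the corepressor SHP, a known product of FXR signalling in the liver and ileum, passed on none. Pgr and Nr0b2 were not well above background on enough arrays to be tested, which leaves 36 receptors. Probes differ in brightness for the same amount of RNA, so signals were compared between arrays within a probe and not between receptors.

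The receptors differed widely in how steady they were between arrays of the same group. The SD within groups was 0.0775 for Hnf4a, 0.0808 for the oxysterol receptor Nr1h2 and 0.0946 for Esrra, compared with a median of 0.17 over all tested probes. At the other end it was 0.80 for Esrrg, 0.54 for Nr4a1, 0.53 for Nr4a2, 0.45 for Nr1i2 and 0.39 for Nr1h3. Esrrg exceeded 98.2% of all tested probes in this spread and Nr4a1 95.3%, whereas Hnf4a exceeded 2.98%.

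**Figure D1:**
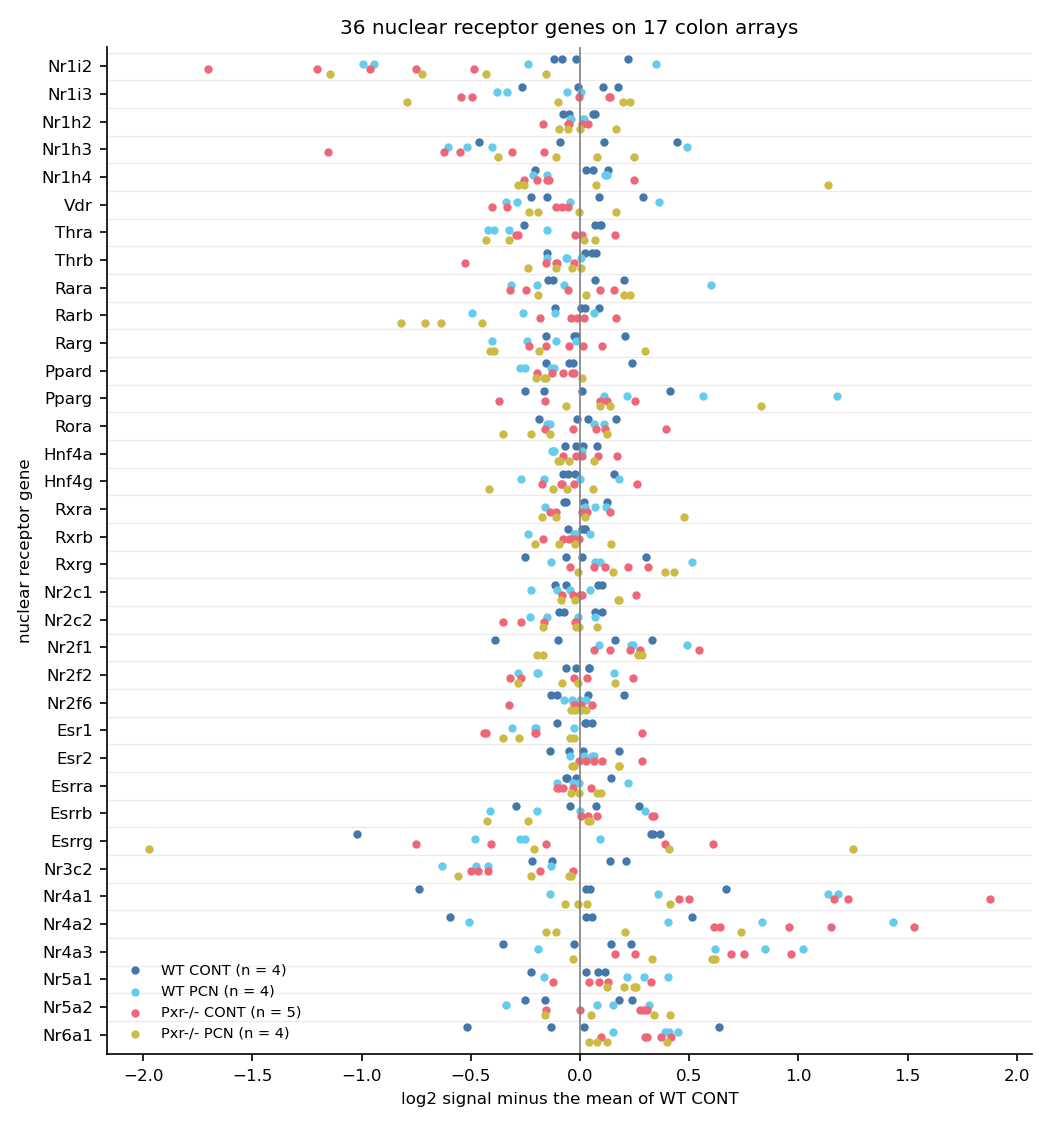
Each point is 1 array, placed by its log2 signal minus the mean of the WT CONT arrays for that gene (x axis), for the 36 tested receptors (y axis). Points of Esrrg, Nr4a1, Nr4a2 and Nr1i2 spread over more than 1 unit, those of Hnf4a and Nr1h2 stay close to 0, and the 4 Pxr-/- PCN points of Rarb lie to the left of all the other Rarb points but 1.

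No receptor was called in any comparison. A call needed a fold change above 1.5 together with a false discovery rate (FDR, the Benjamini-Hochberg adjusted p) not over 0.05 in limma, fitted to all arrays with the wash bath as a covariate. Of the 36 tested receptors 0 were called for PCN in WT, beside 0% of the 38703 tested probes. For PCN in the Pxr-/- mice 0 were called, beside 0.00517% of probes. Pxr-/- against WT gave 0 receptors and 0% of probes in CONT, and 0 and 0% in PCN. The interaction, the PCN effect in Pxr-/- minus that in WT, gave 0 and 0%, and PCN averaged over both genotypes gave 0 receptors and 0.00517% of probes. Values below are therefore descriptions of receptors that did not pass the test, unless stated otherwise.

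At an unadjusted p under 0.05, limma listed 5 of 36 receptors for PCN in WT (Nr3c2, Thra and Ppard lower, Nr6a1 and Pparg higher) beside 4.66% of all tested probes. It listed 4 for PCN in Pxr-/- (Rarb, Nr4a1 and Nr4a2 lower, Nr1h3 higher) beside 7.35%. For genotype in CONT it listed 6 (Nr1i2, Nr3c2 and Nr1h3 lower in Pxr-/-, the NR4A genes higher) beside 12.7%, and for genotype in PCN 1 (Rarb) beside 3.28%. The interaction had 8 receptors (Nr4a1, Rarb, Nr4a2, Nr3c2, Nr6a1, Nr4a3, Nr1i2 and Nr1h3) beside 5.38% of probes, and PCN averaged over genotypes 3 (Rarb, Pparg and Thra) beside 5.91%.

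The lists for the interaction and for PCN in WT depended on the near-identical arrays. Without all 4 of them the interaction had 2 receptors (Nr4a1 and Rarb) beside 2.95% of probes, and PCN in WT 1 (Pparg) beside 4.68%. The counts were then 3 for PCN in Pxr-/- beside 7.19%, 4 for genotype in CONT beside 10.1%, 1 for genotype in PCN beside 7.56% and 3 for PCN averaged over genotypes beside 7.82%. With all arrays, the median log2 fold change of the 36 receptors lay between -0.045 and 0.062 in the 6 comparisons, and that of all tested probes was within 0.01 of 0.

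**Figure D2:**
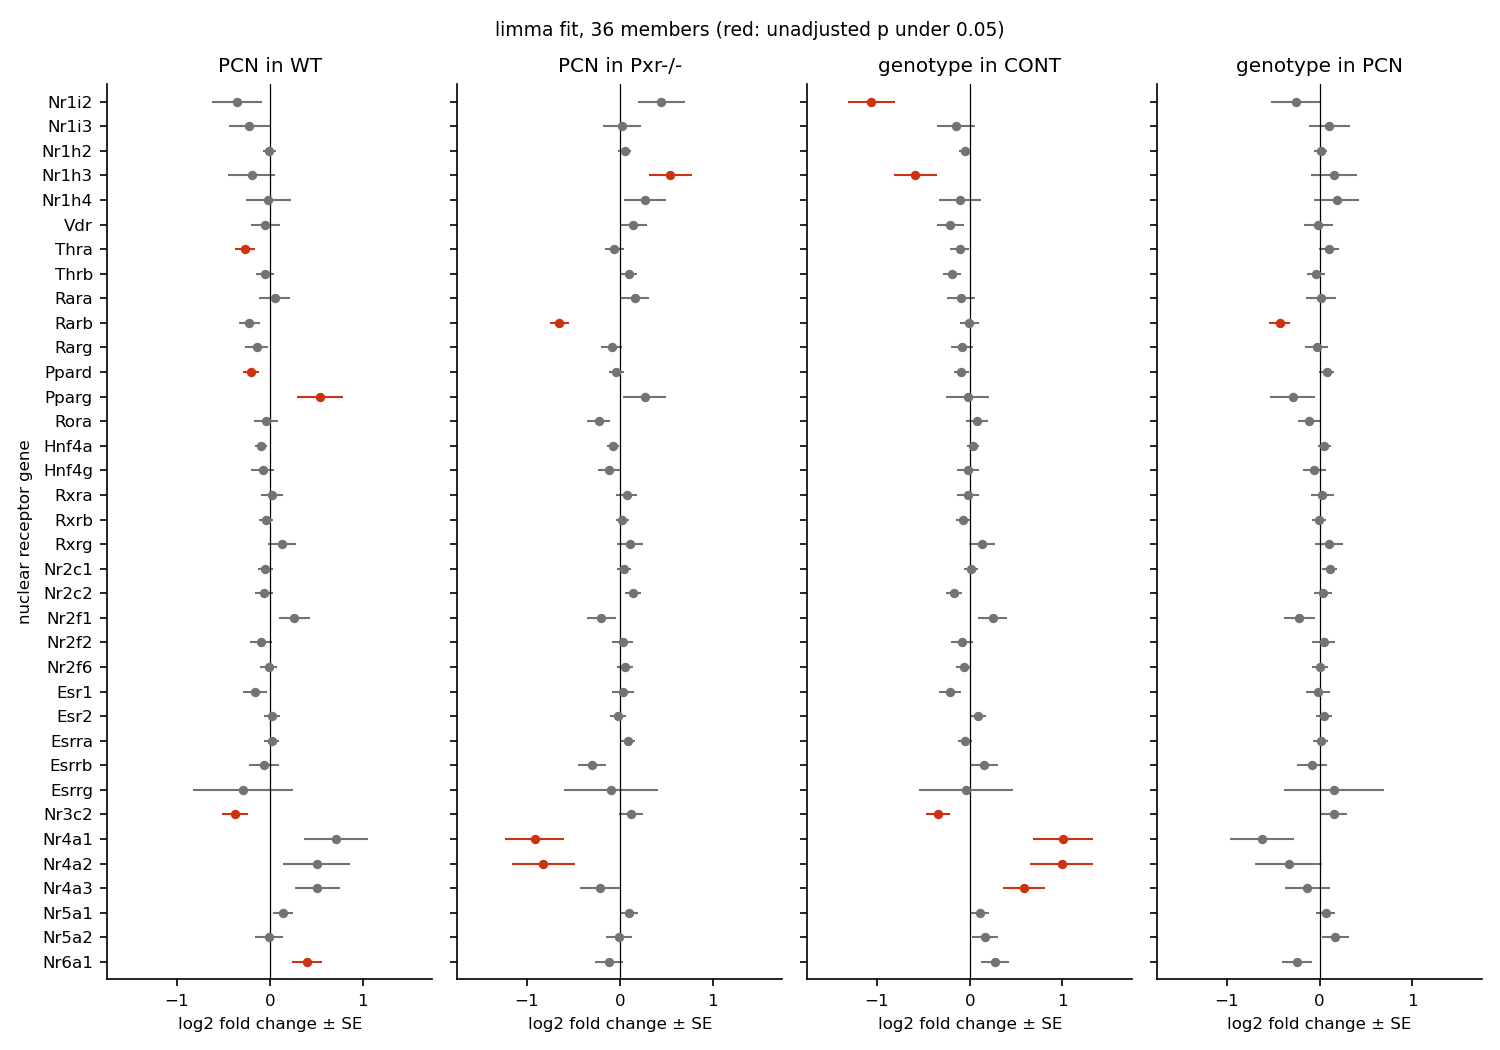
Points are log2 fold changes of the 36 tested receptors with bars of 1 SE from the limma fit, for PCN against CONT in each genotype and for Pxr-/- against WT in each treatment, and red marks an unadjusted p under 0.05. Rarb stands at -0.65 for PCN in Pxr-/- and Nr1i2 at -1.06 for genotype in CONT.

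Rarb encodes retinoic acid receptor beta, which as a dimer with a retinoid X receptor drives genes in response to retinoic acid. Its log2 signal was 8.10, 7.90, 8.02 and 8.04 in WT CONT and 7.75, 7.90, 8.08 and 7.52 in WT PCN. In Pxr-/- CONT it was 8.03, 7.999, 8.18, 7.97 and 7.83, and in Pxr-/- PCN 7.38, 7.31, 7.56 and 7.20. All 4 Pxr-/- PCN arrays were below all 5 Pxr-/- CONT arrays, while WT PCN overlapped WT CONT. Pxr-/- PCN averaged 7.36 ± 0.15 (SD, n = 4), below the Pxr-/- CONT mean of 8.003 ± 0.13 (SD, n = 5).

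In limma the log2 fold change of Rarb for PCN in Pxr-/- was -0.65 ± 0.11 (SE), a fold of 1.57 (unadjusted p = 2.02e-05, adjusted p = 0.157). PCN in WT gave -0.22 ± 0.11 (SE) (unadjusted p = 0.0672), and the interaction was -0.43 ± 0.15 (SE) (unadjusted p = 0.0139, adjusted p = 0.848). Averaged over genotypes, the value for PCN was -0.44 ± 0.078 (SE), with an adjusted p of 0.0988. Rarb passed the call for PCN in Pxr-/- when the arrays labelled WT PCN 3 and 4 were left out (-0.65, adjusted p = 0.00894, beside 0.0749% of probes called), although neither array belongs to that comparison. Without all 4 near-identical arrays it did not (-0.60, adjusted p = 0.107). A second tested Rarb probe gave -0.23 (unadjusted p = 0.0316) for PCN in Pxr-/-, the same direction at a smaller size, and -0.059 (unadjusted p = 0.684) for the interaction.

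The other retinoic acid receptors were nearer to 0. For PCN in Pxr-/- the log2 fold change was 0.16 ± 0.16 (SE) for Rara and -0.089 ± 0.12 (SE) for Rarg. Among 3 genes known to respond to retinoic acid receptors, 0 were called in any comparison. Cyp26b1, which breaks down retinoic acid, was at -1.23 ± 0.34 (SE) for PCN in WT (unadjusted p = 0.00299, adjusted p = 0.956) and at -0.19 ± 0.32 (SE) for PCN in Pxr-/-. Dhrs3, which reduces retinal to retinol, was at -0.33 ± 0.11 (SE) for genotype in CONT (unadjusted p = 0.0086, adjusted p = 0.276). Of the smooth muscle markers 0 were called, but 8 of 8 had, as Rarb, a negative log2 fold change for PCN in Pxr-/- (median -0.42). Of these, 5 had an unadjusted p under 0.05, beside 7.35% of all probes. Their mean log2 signal per array was 14.96 to 15.60 in Pxr-/- CONT and 14.70 to 15.20 in Pxr-/- PCN. Of the enteric neuron and glia markers 0 were called and 9 of 10 were negative (median -0.32, 5 at an unadjusted p under 0.05, beside the same 7.35%), with means of 9.26 to 9.72 and 8.99 to 9.36. Their part in the Rarb values was not tested.

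**Figure D3:**
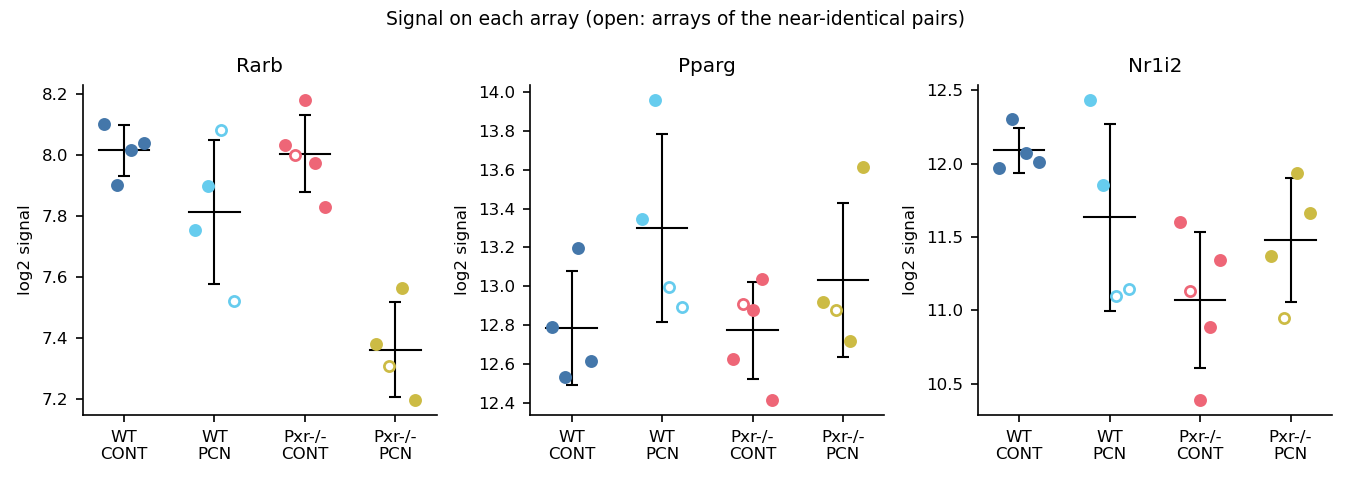
Points are the log2 signals of Rarb, Pparg and Nr1i2 on each array by group, open where the array belongs to a near-identical pair, with lines at the group mean and bars of 1 SD. The Pxr-/- PCN arrays of Rarb lie at 7.20 to 7.56, the WT PCN arrays of Pparg at 12.89 to 13.96, and Nr1i2 is below WT CONT in all Pxr-/- CONT arrays.

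The NR4A receptors (Nr4a1, also Nur77; Nr4a2, also Nurr1; Nr4a3, also Nor-1) act without a known physiological ligand and are controlled mainly by how much of them is made. Nr4a1 read 11.03, 10.25, 11.66 and 11.01 in WT CONT and 11.34, 12.12, 12.17 and 10.85 in WT PCN. In Pxr-/- CONT it read 12.21, 12.15, 11.49, 11.44 and 12.86, and in Pxr-/- PCN 11.02, 10.98, 11.40 and 10.92. Pxr-/- PCN lay wholly below Pxr-/- CONT, and WT CONT overlapped each of the other groups. Pxr-/- CONT averaged 12.03 ± 0.59 (SD, n = 5), against 10.99 ± 0.58 (SD, n = 4) in WT CONT.

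Nr4a1 had a log2 fold change of 1.01 ± 0.32 (SE) for genotype in CONT (unadjusted p = 0.0071, adjusted p = 0.268). PCN in Pxr-/- gave -0.92 ± 0.32 (SE) (unadjusted p = 0.0125, adjusted p = 0.562) and PCN in WT 0.72 ± 0.34 (SE) (unadjusted p = 0.0554). The interaction was -1.64 ± 0.47 (SE), the smallest unadjusted p of the 36 receptors in that comparison (0.00343), with an adjusted p of 0.848. For genotype in PCN the value was -0.63 ± 0.34 (SE) (unadjusted p = 0.0897). Without the 4 near-identical arrays the interaction was -1.69 (unadjusted p = 0.0124). Of the smooth muscle markers 8 of 8 had a negative interaction as well (median -0.52, 2 at an unadjusted p under 0.05). So had 10 of 10 enteric neuron and glia markers (median -0.40, 4 at an unadjusted p under 0.05), beside 5.38% of all probes at that threshold. In either list 0 markers were called. Their mean log2 signals per array were 14.89 to 15.61 and 9.194 to 9.504 in WT CONT and 14.99 to 15.48 and 9.28 to 9.61 in WT PCN, and those of the Pxr-/- groups stand with the Rarb values. Their part in the NR4A values was not tested.

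Nr4a2 showed signals of 8.84, 8.21, 9.32 and 8.86 in WT CONT and 8.30, 9.21, 10.24 and 9.64 in WT PCN. Those of Pxr-/- CONT were 9.45, 10.33, 9.42, 9.95 and 9.76, and those of Pxr-/- PCN 9.01, 9.55, 8.70 and 8.65. Every Pxr-/- CONT array was above every WT CONT array, whereas Pxr-/- PCN overlapped Pxr-/- CONT through 1 array, Pxr-/- PCN 2. The log2 fold change was 0.99 ± 0.34 (SE) for genotype in CONT (unadjusted p = 0.0105, adjusted p = 0.285), -0.82 ± 0.34 (SE) for PCN in Pxr-/- (unadjusted p = 0.0283) and -1.33 ± 0.49 (SE) for the interaction (unadjusted p = 0.0168). The interaction was smaller without the 4 near-identical arrays (-0.82, unadjusted p = 0.078). A second Nr4a2 probe gave 0.91 (unadjusted p = 0.0202) for genotype in CONT and -1.29 (unadjusted p = 0.0226) for the interaction.

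Nr4a3 ranged from 6.45 to 7.04 in WT CONT, 6.61 to 7.83 in WT PCN, 6.97 to 7.77 in Pxr-/- CONT and 6.77 to 7.42 in Pxr-/- PCN. Pxr-/- CONT overlapped every other group. Genotype in CONT gave 0.59 ± 0.22 (SE) (unadjusted p = 0.0198, adjusted p = 0.328) and PCN in Pxr-/- -0.21 ± 0.22 (SE) (unadjusted p = 0.368), and another Nr4a3 probe gave 0.16 (unadjusted p = 0.274) for genotype in CONT.

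Other immediate-early genes were read beside them. Of 6 (Fos, Fosb, Junb, Egr1, Dusp1, Ier2), 0 were called in any comparison. A negative interaction at an unadjusted p under 0.05 was found for 4, beside 5.38% of all probes at that threshold in either direction. The median was -0.90 against 0.01 over all probes. Fos, a subunit of AP-1, was at -1.34 ± 0.45 (SE) for the interaction (unadjusted p = 0.0103) and at -1.03 ± 0.31 (SE) for PCN in Pxr-/- (unadjusted p = 0.0051, adjusted p = 0.474). Fosb was at -1.16 ± 0.39 (SE) (unadjusted p = 0.0094). The mean log2 signal of the 6 genes was 10.46 to 10.86 in WT CONT, 10.56 to 11.29 in WT PCN, 10.75 to 11.24 in Pxr-/- CONT and 10.22 to 10.88 in Pxr-/- PCN, and all of these groups overlap.

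**Figure D4:**
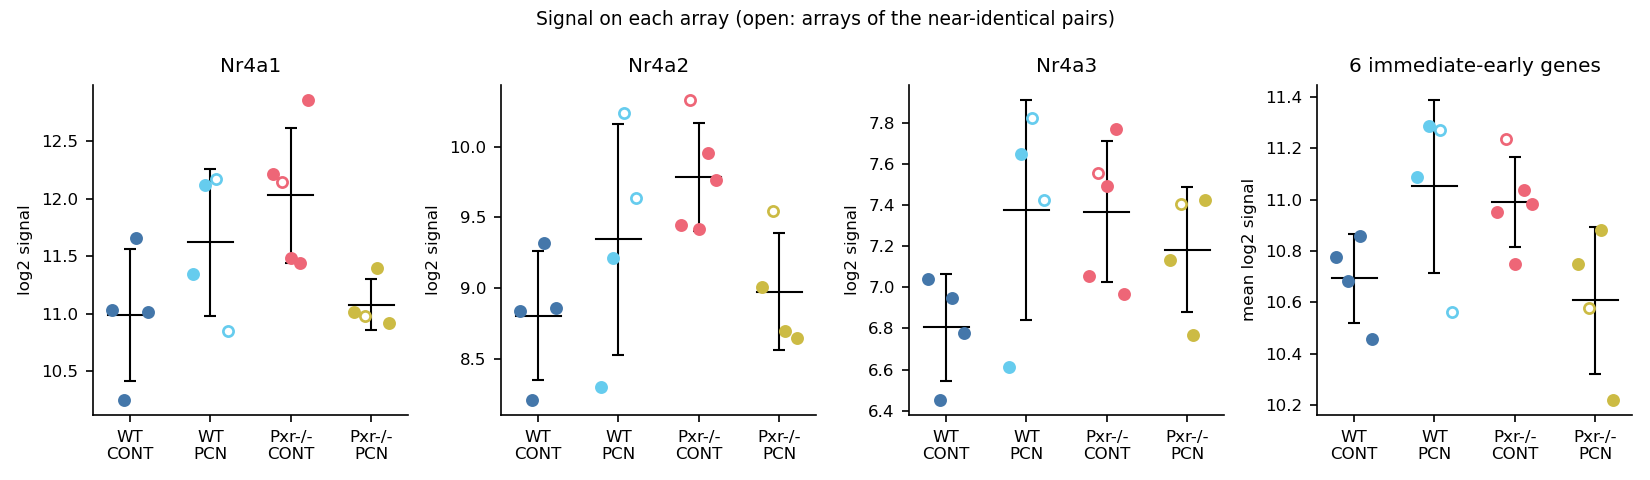
Points are the log2 signals of Nr4a1, Nr4a2 and Nr4a3, and the mean over 6 immediate-early genes, on each array by group, open for the near-identical arrays, with lines at the group mean and bars of 1 SD. Nr4a1 in Pxr-/- PCN (10.92 to 11.40) lies below Pxr-/- CONT (11.44 to 12.86), and the WT PCN arrays are scattered.

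Nr1i2 is the gene disrupted in the Pxr-/- mice. The sources used here do not state whether its probe lies in the deleted part, so its level does not check the labels. The signal was 11.97, 12.31, 12.07 and 12.01 in WT CONT and 12.44, 11.85, 11.10 and 11.15 in WT PCN. It was 11.61, 11.13, 10.39, 10.89 and 11.34 in Pxr-/- CONT and 11.37, 10.95, 11.93 and 11.66 in Pxr-/- PCN. In CONT the genotypes did not overlap, and the difference of means was -1.02 (two-sided exact permutation p = 0.0159, the smallest that 4 against 5 arrays allow). In PCN they overlapped, and WT PCN 1 alone lay above all Pxr-/- PCN arrays. WT PCN 3 (11.10) read close to its near-identical array Pxr-/- CONT 2 (11.13), and WT PCN 4 was at 11.15 and its near-identical array Pxr-/- PCN 2 at 10.95.

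In limma, Nr1i2 was at -1.06 ± 0.25 (SE) for genotype in CONT (unadjusted p = 0.000819, adjusted p = 0.201) and at -0.26 ± 0.27 (SE) for genotype in PCN (unadjusted p = 0.352). Without WT PCN 3 and 4 the latter became -0.67 (unadjusted p = 0.0358, adjusted p = 0.533). For PCN in WT the value was -0.35 ± 0.27 (SE) with all arrays and 0.054 without those arrays, a change of sign. The interaction was 0.80 ± 0.37 (SE) (unadjusted p = 0.0458) with all arrays and 0.38 (unadjusted p = 0.305) without WT PCN 3 and 4. Leaving out 1 array at a time moved genotype in PCN between -0.53 and -0.019, the latter without WT PCN 1.

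The calls of genes that PXR is known to drive depended on the near-identical arrays. With all arrays 0 of 5 known PXR targets were called in any comparison. The median log2 fold change was 0.52 for PCN in WT and -1.55 for genotype in PCN, where 3 were lower at an unadjusted p under 0.05, beside 3.28% of probes. Without the 4 near-identical arrays 3 of the 5 were called higher with PCN in WT, beside 0.0491% of probes called. All 5 were then higher at an unadjusted p under 0.05 (median 1.96), beside 4.68% of probes at that threshold. The same 3 were called lower in Pxr-/- for genotype in PCN, beside 0.0207% of probes, and higher for PCN averaged over genotypes, beside 0.194%. For genotype in PCN all 5 were lower at an unadjusted p under 0.05 (median -2.72), beside 7.56% of probes. Genotype in CONT had 0 of 5 called, beside 0% of probes. There Ces2a (-1.60), Abcb1a (-0.77) and Akr1b7 (-0.61) were lower in Pxr-/- at an unadjusted p under 0.05, beside 10.1% of probes. For PCN in Pxr-/- 0 of 5 were called, beside 0.0517% of probes, and for the interaction 0 of 5, beside 0.00258%. Abcb1a (0.49, unadjusted p = 0.00164) and Ces2a (0.59, unadjusted p = 0.0193) were nevertheless higher in limma for PCN in Pxr-/-. At an unadjusted p under 0.05 that comparison had 7.19% of probes. In the interaction 3 were lower at an unadjusted p under 0.05 (median of the 5 -1.72), beside 2.95% of probes.

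The called targets were Akr1b7, an aldo-keto reductase, Ces2a, a carboxylesterase, and Abcb1a, a drug efflux pump, the last of these named after its values were seen. Akr1b7 read 8.37, 8.48, 8.92 and 8.37 in WT CONT and 10.71, 10.28, 8.16 and 7.26 in WT PCN. It read 7.70, 8.27, 7.92, 8.20 and 7.89 in Pxr-/- CONT and 7.67, 7.34, 7.86 and 7.81 in Pxr-/- PCN. WT PCN 1 and 2 lay above all other arrays, and WT PCN 3 and 4 within or below the range of Pxr-/-.

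For PCN in WT, Akr1b7 was at 0.69 ± 0.53 (SE, adjusted p = 0.956) with all arrays and at 1.96 ± 0.19 (SE, adjusted p = 0.00622) without the 4 near-identical ones. Ces2a went from 0.52 ± 0.72 (SE, adjusted p = 0.958) to 2.30 ± 0.24 (SE, adjusted p = 0.00664), and Abcb1a from 0.26 ± 0.46 (SE, adjusted p = 0.969) to 1.36 ± 0.13 (SE, adjusted p = 0.00622). In Pxr-/- the values for PCN without these arrays were -0.15 ± 0.17 (SE, adjusted p = 0.928) for Akr1b7, 0.59 ± 0.21 (SE, adjusted p = 0.599) for Ces2a and 0.49 ± 0.12 (SE, adjusted p = 0.357) for Abcb1a. Without the arrays labelled WT PCN 3 and 4 alone, PCN in WT had 2 called targets (Akr1b7 and Ces2a). Genotype in CONT then had 1 (Ces2a), genotype in PCN 3, the interaction 1 (Akr1b7) and PCN averaged over genotypes 3. The share of all probes called in that fit is not given for these comparisons, so the counts have no general rate beside them. These fits leave WT PCN with 2 arrays, both with raised liver markers. On WT CONT 5, the array with the highest liver markers, Akr1b7 was 8.37, Ces2a 11.50 and Abcb1a 14.02, against 8.37 to 8.92, 11.42 to 12.05 and 13.87 to 13.98 on the other WT CONT arrays, and the part of the liver markers in these values was not tested.

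Nr1i3 encodes CAR, the xenobiotic receptor closest to PXR, and is known chiefly from the liver. Signals were 8.27, 8.34, 7.90 and 8.16 in WT CONT and 8.11, 7.79, 7.83 and 8.18 in WT PCN. Pxr-/- CONT arrays gave 8.17, 7.62, 8.30, 7.67 and 8.31 and Pxr-/- PCN arrays 8.37, 8.07, 8.40 and 7.38. The 4 groups overlapped, with -0.14 ± 0.21 (SE) for genotype in CONT and -0.22 ± 0.22 (SE) for PCN in WT. On the 3 arrays with raised liver markers (WT CONT 5, WT PCN 1 and WT PCN 2) Nr1i3 was 8.16, 8.11 and 7.79, within the 7.38 to 8.40 of the other arrays. These 3 arrays stand apart from the rest in liver markers, so no correlation is given.

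Pparg, the fatty acid receptor of adipocytes that colonocytes also carry, read 12.79, 12.53, 13.20 and 12.62 in WT CONT and 13.35, 13.96, 12.998 and 12.89 in WT PCN. Pxr-/- CONT gave 12.62, 12.91, 12.88, 13.04 and 12.42, and Pxr-/- PCN gave 12.92, 12.88, 12.72 and 13.61. WT PCN 1 and 2 were above all WT CONT arrays and WT PCN 3 and 4 within their range. PCN in WT gave 0.54 ± 0.25 (SE) (unadjusted p = 0.0446, adjusted p = 0.956) and PCN averaged over genotypes 0.40 ± 0.17 (SE) (unadjusted p = 0.0307). Leaving out WT PCN 2 took PCN in WT to 0.32. Without WT PCN 3 and 4, PCN in WT gave 0.87 (unadjusted p = 0.00713, adjusted p = 0.627), and a second Pparg probe, with all arrays, gave 0.38 (unadjusted p = 0.11).

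Of 7 adipocyte markers 0 were called. For PCN in WT 6 of 7 had a negative log2 fold change, opposite to that of Pparg. The median was -1.30 (5 at an unadjusted p under 0.05, beside 4.66% of all probes) over all arrays. Without the 4 near-identical arrays it was -0.78 for these markers (0 at an unadjusted p under 0.05, beside 4.68% of all probes). Their mean per array was 9.43 to 11.002 in WT CONT, 8.34 to 9.79 in WT PCN, 8.71 to 10.24 in Pxr-/- CONT and 7.75 to 8.87 in Pxr-/- PCN. Over 15 arrays, leaving out WT PCN 3 and 4, Pparg and the adipocyte mean gave Pearson's r = 0.12 (permutation p = 0.661; adjusted 0.661) and Spearman's rho = 0.018 (permutation p = 0.953; adjusted 0.953), with p-values adjusted over 7 pairs of receptor and list. These values pool the 4 groups, and the deviations of the same arrays from their group means had r = 0.40. Of 4 genes known as PPAR targets, 0 were called. Angptl4, an inhibitor of lipoprotein lipase, was at 1.22 ± 0.38 (SE) for PCN in Pxr-/- (unadjusted p = 0.00569, adjusted p = 0.486), and Cpt1a, of mitochondrial fatty acid uptake, at 0.25 ± 0.11 (SE) (unadjusted p = 0.0462). Ppard, the PPAR of most epithelia, was at -0.20 ± 0.085 (SE) for PCN in WT (unadjusted p = 0.0328) and at -0.11 without WT CONT 3.

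The bile acid receptor FXR (Nr1h4) drives bile acid export and feedback in the gut. Its signal was 12.84, 12.87, 12.94 and 12.61 in WT CONT and 12.93, 12.66, 12.60 and 12.94 in WT PCN, and 12.56, 12.67, 12.66, 13.06 and 12.62 in Pxr-/- CONT. In Pxr-/- PCN it was 12.53, 12.89, 12.56 and 13.95, where Pxr-/- PCN 4 stood above every other array. No comparison had an unadjusted p under 0.05, with -0.015 ± 0.24 (SE) for PCN in WT and 0.27 ± 0.23 (SE) for PCN in Pxr-/-. Of 4 FXR targets 3 were tested (not Fgf15) and 0 called. Fabp6, the bile acid binding protein of ileum, was at 1.53 ± 0.51 (SE) for PCN in Pxr-/- (unadjusted p = 0.00977, adjusted p = 0.53), and Slc51b, part of a basolateral bile acid exporter, at 0.52 ± 0.28 (SE) for PCN averaged over genotypes (unadjusted p = 0.0868).

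The vitamin D receptor Vdr read 13.12, 13.56, 13.04 and 13.35 in WT CONT and 13.63, 13.22, 12.93 and 12.98 in WT PCN. Pxr-/- CONT had 13.21, 12.86, 12.93, 13.16 and 13.19, and Pxr-/- PCN 13.08, 13.03, 13.26 and 13.43. All groups overlapped, and the 6 comparisons lay between -0.21 ± 0.15 (SE) for genotype in CONT and 0.19 ± 0.21 (SE) for the interaction. Of its 4 targets 3 were tested and 0 called, with Atp2b1, a plasma membrane calcium pump, at 0.41 ± 0.17 (SE) for PCN in WT (unadjusted p = 0.0337) and the calcium channel Trpv6 at -1.20 ± 0.76 (SE) for genotype in CONT (unadjusted p = 0.135).

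The oxysterol receptor Nr1h3 (LXR alpha) ranged from 10.71 to 11.62 in WT CONT, 10.57 to 11.66 in WT PCN, 10.02 to 11.01 in Pxr-/- CONT and 10.80 to 11.42 in Pxr-/- PCN. Genotype in CONT gave -0.59 ± 0.24 (SE) (unadjusted p = 0.0254, adjusted p = 0.343), PCN in Pxr-/- 0.55 ± 0.24 (SE) (unadjusted p = 0.0353), and a second probe gave -0.64 (unadjusted p = 0.0113) and 0.52 (unadjusted p = 0.0329). Without WT CONT 3, genotype in CONT was -0.39. Its relative Nr1h2 (LXR beta) stayed between 13.16 and 13.50 on all arrays. Of 6 LXR targets 0 were called. Mylip, which tags the LDL receptor for degradation, was at -0.37 ± 0.16 (SE) for genotype in CONT (unadjusted p = 0.0376), and the cholesterol exporter Abca1 was at -0.46 ± 0.23 (SE) (unadjusted p = 0.0625).

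The shared partner Rxra read 14.02, 14.01, 14.21 and 14.10 in WT CONT and 13.93, 14.21, 14.16 and 14.11 in WT PCN. The arrays of Pxr-/- CONT gave 13.98, 14.12, 14.10, 14.22 and 13.95, and those of Pxr-/- PCN 14.11, 13.98, 13.92 and 14.56. No group stood apart, and the log2 fold changes lay between -0.019 ± 0.12 (SE) for genotype in CONT and 0.073 ± 0.12 (SE) for PCN in Pxr-/-. Rxrb (12.94 to 13.32) and Rxrg (6.76 to 7.52) had no unadjusted p under 0.05 on the probes used. The probes of Rxrb disagreed: for genotype in CONT the one used gave -0.075 ± 0.073 (SE), and its other probes gave -0.33 (unadjusted p = 0.022) and -0.45 (unadjusted p = 0.00288).

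Hnf4a and Nr5a2 are epithelial receptors. Hnf4a, a master regulator of the differentiated enterocyte, gave 15.47, 15.55, 15.52 and 15.62 in WT CONT and 15.42, 15.41, 15.55 and 15.42 in WT PCN. Its Pxr-/- CONT signals were 15.71, 15.52, 15.55, 15.62 and 15.46 and its Pxr-/- PCN signals 15.45, 15.44, 15.60 and 15.49. All 17 arrays lay between 15.41 and 15.71, and all groups overlapped. Against the mean of 8 colonocyte markers over 15 arrays, Pearson's r = -0.21 (permutation p = 0.445; adjusted 0.52) and Spearman's rho = -0.29 (permutation p = 0.302; adjusted 0.353) were obtained. For deviations from the group means r was 0.010. Its paralog Hnf4g read 7.54 to 8.22.

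Nr5a2 (LRH-1), which supports crypt renewal and is also strong in exocrine pancreas, read 11.85, 11.79, 11.36 and 11.45 in WT CONT and 11.27, 11.76, 11.69 and 11.93 in WT PCN. Pxr-/- CONT stood at 11.45, 11.61, 11.89, 11.92 and 11.90, and Pxr-/- PCN at 11.66, 11.95, 11.45 and 12.02. The 4 groups overlapped, with 0.17 ± 0.14 (SE) for genotype in CONT. On the arrays with high pancreas markers (WT CONT 4, Pxr-/- CONT 2, WT PCN 3 and WT PCN 1) Nr5a2 was 11.36, 11.61, 11.69 and 11.27, against 11.45 to 12.02 on the other arrays. These 4 arrays form a cluster of their own in pancreas markers, so no correlation is given.

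Thra, the thyroid hormone receptor of the intestinal epithelium, gave 12.58, 12.93, 12.92 and 12.90 in WT CONT and 12.68, 12.44, 12.41 and 12.51 in WT PCN. Values were 12.996, 12.54, 12.55, 12.84 and 12.81 in Pxr-/- CONT and 12.85, 12.51, 12.40 and 12.90 in Pxr-/- PCN. WT PCN was mostly lower than WT CONT but overlapped it through WT CONT 2 and WT PCN 1. The log2 fold change was -0.27 ± 0.11 (SE) for PCN in WT (unadjusted p = 0.0289, adjusted p = 0.956) and -0.16 ± 0.077 (SE) for PCN averaged over genotypes (unadjusted p = 0.0491). The 3 tested probes of Thra disagreed on the interaction, with 0.21 ± 0.15 (SE) on the one used and 0.52 (unadjusted p = 0.00119) and 0.059 (unadjusted p = 0.733) on the others. Of 3 genes known to respond to thyroid hormone, 0 were called, with Thrsp, a lipogenic gene, at -0.59 ± 0.14 (SE) for PCN averaged over genotypes (unadjusted p = 0.00065, adjusted p = 0.254) and Dio1, a deiodinase, at -0.89 ± 0.32 (SE) for genotype in CONT (unadjusted p = 0.0138). Thrb read 8.29 to 8.89.

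Nr6a1 (GCNF), an orphan receptor of germ and stem cells, read 8.46, 8.84, 9.61 and 8.998 in WT CONT and 9.37, 9.38, 9.43 and 9.13 in WT PCN. Pxr-/- CONT was at 9.28, 9.29, 9.07, 9.40 and 9.35 and Pxr-/- PCN at 9.02, 9.10, 9.06 and 9.38. WT CONT spanned the range of all other arrays, and its 4 values were the most scattered. PCN in WT gave 0.40 ± 0.16 (SE) (unadjusted p = 0.0248, adjusted p = 0.956) and genotype in PCN -0.24 ± 0.16 (SE) (unadjusted p = 0.153). Without WT CONT 2, PCN in WT was 0.24.

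Nr3c2, the mineralocorticoid receptor, through which aldosterone drives sodium uptake in the distal colon, read 12.33, 12.60, 12.24 and 12.67 in WT CONT and 12.33, 12.04, 11.99 and 11.83 in WT PCN. The Pxr-/- CONT arrays showed 12.43, 11.96, 11.99, 12.04 and 12.28, and the Pxr-/- PCN arrays 12.41, 11.90, 12.42 and 12.24. WT PCN lay below WT CONT except for WT PCN 1, and the Pxr-/- groups overlapped each other. PCN in WT gave -0.37 ± 0.14 (SE) (unadjusted p = 0.0172, adjusted p = 0.956), genotype in CONT -0.34 ± 0.13 (SE) (unadjusted p = 0.0198) and the interaction 0.49 ± 0.19 (SE) (unadjusted p = 0.0198). Without the 4 near-identical arrays PCN in WT gave -0.28 (unadjusted p = 0.0971). Its other 2 tested probes gave -0.13 (unadjusted p = 0.468) and -0.22 (unadjusted p = 0.155) for PCN in WT.

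Esrrg, the estrogen-related receptor of oxidative tissues, was the most variable receptor, with 7.60 to 8.98 in WT CONT, 8.13 to 8.71 in WT PCN, 7.86 to 9.22 in Pxr-/- CONT and 6.64 to 9.87 in Pxr-/- PCN. The groups overlapped in all comparisons, and its log2 fold changes (such as -0.29 ± 0.54 (SE) for PCN in WT) were below their errors. Its signal went with the mean of 4 Hox genes known from the distal colon (Hoxb13, Hoxa13, Hoxd12, Hoxd13), 3 of which were well above background on all arrays of each group. This mean ran from 6.54 on Pxr-/- PCN 4 to 11.36 on Pxr-/- PCN 3. Over 15 arrays Esrrg and the Hox mean had Pearson's r = 0.93 (permutation p = 2e-05; adjusted 0.00014) and Spearman's rho = 0.84 (permutation p = 0.00016; adjusted 0.00112), where 1e-05 is the smallest p that 100000 permutations can give. Without the 2 arrays farthest from the median Hox mean (Pxr-/- CONT 4 and Pxr-/- PCN 4) r was 0.84, and it was 0.96 within wash bath 1 (7 arrays) and 0.92 within bath 2 (8 arrays).

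For Nr3c2 the same Hox mean gave Pearson's r = 0.56 (permutation p = 0.0271; adjusted 0.038) and Spearman's rho = 0.72 (permutation p = 0.00291; adjusted 0.00679), with r = 0.72 without the 2 farthest arrays, and 0.84 within wash bath 1 (7 arrays) and 0.48 within bath 2 (8 arrays). Nr1h4 had Pearson's r = -0.71 (permutation p = 0.00817; adjusted 0.0191) and Spearman's rho = -0.54 (permutation p = 0.042; adjusted 0.0735), but r was -0.12 without the 2 farthest arrays, so this relation rests on them, and it was -0.47 within wash bath 1 (7 arrays) and -0.79 within bath 2 (8 arrays). These 3 pairs were chosen after the values had been seen, so their p-values, adjusted or not, do not measure how rare such values are. The Hox mean was 8.79 to 10.94 in WT CONT, 8.87 to 11.32 in WT PCN and 8.38 to 10.45 in Pxr-/- CONT, and its part in the Nr3c2 values was not tested.

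**Figure D5:**
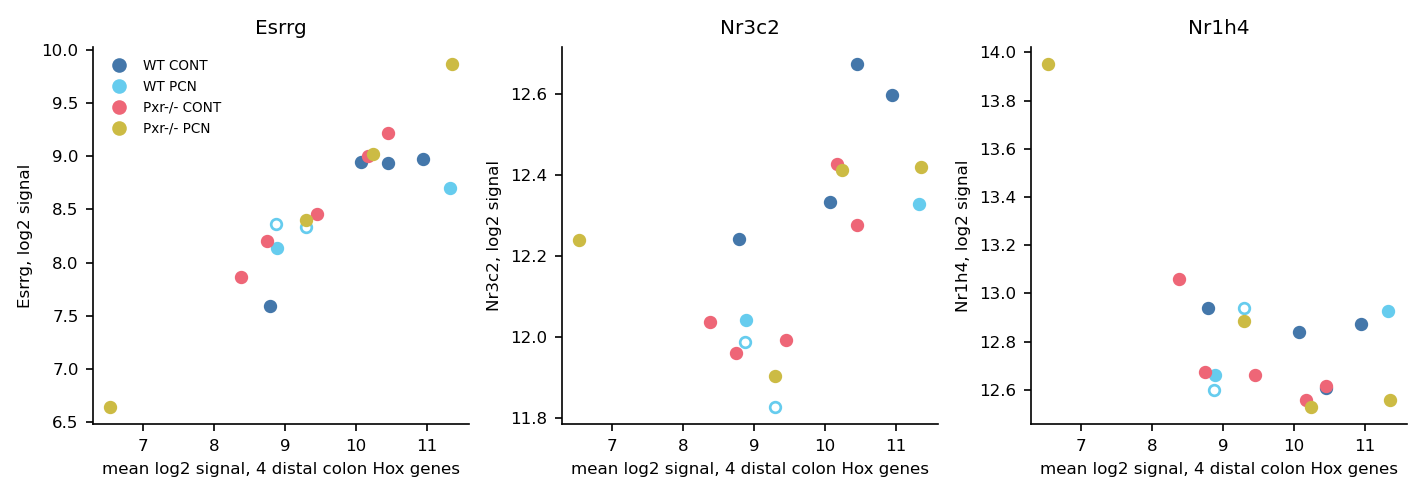
Each point is 1 array, with the mean log2 signal of 4 distal colon Hox genes on the x axis and the log2 signal of Esrrg, Nr3c2 or Nr1h4 on the y axis, coloured by group, and open points are WT PCN 3 and 4, left out of the correlations. Esrrg rises along the axis from 6.64 to 9.87, and the high Nr1h4 value of 13.95 is the array with the lowest Hox mean.

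The orphan receptors Nr2f1 and Nr2f2 (COUP-TFs) belong to mesenchyme and the nervous system. Nr2f1 (8.08 to 9.01) went with the mean of 10 enteric neuron and glia markers, with Pearson's r = 0.73 (permutation p = 0.00212; adjusted 0.00742) and Spearman's rho = 0.77 (permutation p = 0.00117; adjusted 0.00409), r = 0.79 without the 2 farthest arrays, and 0.70 within wash bath 1 (7 arrays) and 0.89 within bath 2 (8 arrays). Nr2f2 (9.78 to 10.35) ran against the mean of 8 smooth muscle markers, with Pearson's r = -0.59 (permutation p = 0.0202; adjusted 0.0354) and Spearman's rho = -0.51 (permutation p = 0.0538; adjusted 0.0753), r = -0.57 without the 2 farthest arrays, and -0.71 within wash bath 1 (7 arrays) and -0.54 within bath 2 (8 arrays). In the comparisons neither had an unadjusted p under 0.05, the nearest being Nr2f1 for the interaction at -0.47 ± 0.23 (SE) (unadjusted p = 0.0575).

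A further 11 receptors had no unadjusted p under 0.05 in any comparison. They were Esr1 (7.44 to 8.16 over all arrays), Esr2 (11.64 to 12.06), Esrra (14.36 to 14.69), Esrrb (5.33 to 6.10), Nr2c1 (9.49 to 9.97), Nr2c2 (9.94 to 10.39), Nr2f6 (13.53 to 14.05), Nr5a1 (7.03 to 7.66), Rora (10.15 to 10.90), Rara (11.60 to 12.53) and Rarg (10.53 to 11.24). The same holds for Thrb, Hnf4g, Nr1h2, Rxrb and Rxrg. The nearest to the threshold among these were Thrb for genotype in CONT (-0.19 ± 0.093 (SE), unadjusted p = 0.0584) and Esrrb for PCN in Pxr-/- (-0.29 ± 0.15 (SE), unadjusted p = 0.071).

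The superfamily has 11 other receptor genes in the lists used here, of which 8 were tested and 0 called. Nr1d1 (REV-ERB alpha), a repressor of the circadian clock, was at -0.67 ± 0.15 (SE) for genotype in CONT (unadjusted p = 0.00038, adjusted p = 0.184), -0.51 ± 0.16 (SE) for PCN in WT and 0.85 ± 0.21 (SE) for the interaction (unadjusted p = 0.0012). All 18 coregulators were tested and 0 called. Ppargc1a (PGC-1 alpha), the coactivator of Pparg and Esrrg, was at -0.69 ± 0.25 (SE) for PCN in WT (unadjusted p = 0.0131, adjusted p = 0.956).

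Receptors with several probes were read for how far the probes went together. Of 24 receptors with at least 2 tested probes, all probes had the same sign in 20 for genotype in CONT, 19 for PCN in Pxr-/-, 17 for PCN in WT, 13 for genotype in PCN, 20 for the interaction and 18 for PCN averaged over genotypes. The marker lists not yet named gave 0 calls, with all arrays and without the near-identical ones. With all arrays, at an unadjusted p under 0.05, and over the 6 comparisons, colonocyte markers had 0 to 2 of 8 genes, goblet 0 to 2 of 7, fibroblast 0 to 1 of 4, endothelium 0 to 1 of 4, T cell 0 to 1 of 4, B and plasma cell 0 to 1 of 4, myeloid 0 of 4, liver 0 to 1 of 7 tested, pancreas 0 of 8 and distal colon 0 of 4. The shares of all tested probes at that threshold were 3.28% to 12.7% over these comparisons. Without the arrays labelled WT PCN 3 and 4, liver had 3 of 7 and myeloid 2 of 4, all lower, for genotype in PCN. The WT PCN arrays kept in that fit, WT PCN 1 and 2, both had liver means of 8.16. Those left out had 6.33 and 6.41, and the Pxr-/- PCN arrays 6.17 to 6.41. The share of all probes in that fit is not given. In 2 other fits, genotype in PCN had 3.28% of all probes with all arrays and 7.56% without all 4 near-identical arrays. Without all 4, goblet had 2 of 7 for PCN in Pxr-/-, beside 7.19% of all probes.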

How the data were processed

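Per the labels and the study's methods, Cy3-labelled RNA of whole colon was hybridized to 1-colour Agilent arrays on 8 slides, washed in 2 baths and scanned with Agilent Feature Extraction 10.10.1.1. The deposited scanner files give the intensity of each spot, not normalized between arrays, and a value table deposited beside them by the authors holds log2 expression of 36695 probes. Here the median signal of 59305 non-control spots was used. Outlier spots were dropped, log2 was taken, arrays were quantile-normalized (in place of the authors' CrossNorm) and spots averaged into 56605 probes. Probes well above background on at least 4 of 17 arrays were tested (38703) with limma 3.58.1 in R 4.3.3, groups and bath as terms and Benjamini-Hochberg adjustment.

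Receptors read in full were Nr1i2, Nr1i3, Nr1h4, Vdr, Rxra, Hnf4a, Nr5a2 and the 3 with the smallest unadjusted p in each comparison. Of pathway genes the 2 with the smallest unadjusted p in a list were named, except that some genes this rule picks are not reported here. Other receptors given by array range, and the pairs with the Hox genes, had been looked at before they were chosen. The members and lists were chosen with earlier results of these data known. Correlations used 100000 permutations, or all of them under 10 arrays. The accession of 35 member probes matched RefSeq under the same symbol. Precision is limited by the number of arrays. The labels do not say that each array is a separate mouse, so p-values measure the spread between these arrays. The fit was tested on simulated data.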

Additional observations from a re-analysis of the deposited data

Results flagged for a closer look

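In the 14 receptors read in full, 56 groups were tested for a value far from the rest of its group by Dixon's criterion, and 3 stood out, about what chance gives at 1 in 20. Nr1h4 was 13.06 on Pxr-/- CONT 4, against 12.56 to 12.67 on the other arrays of that group. Hnf4a was 15.55 on WT PCN 3, against 15.41 to 15.42. Thra was 12.58 on WT CONT 2, against 12.90 to 12.93.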

How the results depend on the processing

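The count of called receptors stayed at 0 under all alternatives run but the following. For PCN in Pxr-/- it was 1 (Rarb) with array weights and without the arrays labelled WT PCN 3 and 4, and ranged from 0 to 1 when each array was left out in turn, being 1 without WT PCN 3 and without WT PCN 4. For genotype in CONT it was 1 (Nr1i2) with array weights, and for PCN averaged over genotypes 1 (Rarb) at an FDR of at most 0.1 with no fold threshold. Without the arrays labelled WT PCN 3 and 4, 0.0749% of all probes were called for PCN in Pxr-/-. The shares of all probes in the other settings named here are not given, so those counts have no general rate beside them. The cause of these changes was not tested. The Nr1i2 difference in CONT was -1.50 in wash bath 1 alone (exact permutation p = 0.333, the smallest that 2 against 2 arrays allow) and -0.68 in bath 2 alone (exact permutation p = 0.2, likewise for 2 against 3), and -1.15 to -0.85 with each array left out. The count of 35 receptors above background on every array kept within 1.5 times under the 3 alternatives run.

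Among the correlations with marker lists, Pparg with adipocyte turned to -0.051 in bath 2 and Hnf4a with colonocyte to 0.017 in bath 1. Hnf4a with colonocyte reached -0.56 without the 2 farthest arrays (permutation p = 0.047), Nr2f1 with neuron and glia was 0.70 in bath 1 (exact permutation p = 0.0861), and Nr2f2 with smooth muscle was -0.71 in bath 1 (exact permutation p = 0.0875) and -0.54 in bath 2 (exact permutation p = 0.177).

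Of 1109 log2 fold changes over 32 pairs of receptor and comparison, 1102 kept their direction. The pairs were those with an unadjusted p under 0.05 or among the 3 smallest of a comparison in the main fit, together with Nr1i2. The alternatives reuse the same arrays, so a kept direction was likely beforehand and is no independent support. In bath 2 alone the sign turned for Nr1h3 (-0.32), Nr1i2 (-0.24) and Nr4a3 (0.34) in the interaction and for Nr1i2 in PCN in WT (0.40). Nr1i2 in PCN in WT also turned without the 4 near-identical arrays (0.054) and without WT PCN 3 and 4 (0.054), and Nr1i2 in genotype in PCN turned in bath 1 alone (0.076).

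No source states that equal replicate numbers pair arrays, and deviations of same-numbered arrays correlated between -0.33 and 0.49. With a replicate block the count of called receptors was 0 in all 6 comparisons.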
